A study of Homo sapiens with 12 samples.

Results

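The ERBB receptors and their ligands were followed in SKOV3 and SKOV3/DDP cells through 10 genes: the receptors EGFR, ERBB2, ERBB3 and ERBB4 and the ligand genes AREG, EREG, TGFA, HBEGF, NRG1 and BTC. A gene was taken where the count tables name a row by exactly that symbol, and all 10 were found among 46350 named genes. RNA was sequenced in 12 libraries, 3 in each of 4 groups: untreated SKOV3, SKOV3 given paeonol (SKOV3_PAE), untreated SKOV3/DDP, and SKOV3/DDP given paeonol (SKOV3/DDP_PAE). SKOV3 is an established human line of epithelial ovarian cancer, here the cisplatin-sensitive one. SKOV3/DDP is a cisplatin-resistant line that the study describes as derived from SKOV3, so each arm is 1 line. Paeonol (PAE) is a phenolic compound of peony root, and the labels give neither its dose nor its time. The comparisons ask how the resistant line differs from the sensitive one and what PAE changes in each. The labels do not say which libraries came from separate cultures, so p-values measure the spread between these libraries, which may be technical.

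ERBB proteins are receptor tyrosine kinases of the cell surface that signal as pairs, through RAS and ERK and through PI3 kinase and AKT. EGFR, ERBB3 and ERBB4 bind growth factors that are made as membrane-anchored precursors and cut free by metalloproteases of the ADAM family, whereas ERBB2 has no known ligand and serves the others as a partner. SKOV3 is known for amplification of ERBB2.

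Libraries held between 14610008 and 18263479 counts, with a median of 16260043. Levels are given as CPM, counts scaled to a library of 1000000 after TMM scaling over the 12 libraries, and divided by gene length (CPM per kb) where genes are set against each other. The 3 untreated SKOV3 libraries stood apart: they had counts for 17951 to 18240 genes, against 21469 to 23194 in the other 9, and TMM factors of 0.644 to 0.674, against 0.975 to 1.23. Fold changes tracked transcript GC content in the comparisons with these libraries (Spearman's rho over genes, which are not replicates: -0.604 over 14410 genes for the untreated lines and -0.775 over 15683 genes for PAE in SKOV3), against -0.169 for PAE in SKOV3/DDP and -0.0076 between the PAE-treated lines. Fold changes and counts of calls that rest on untreated SKOV3 were therefore also computed with the trend removed, that is, after each library had been corrected for its dependence on GC and length. The correction moved the all-gene median of log2 fold changes from 0.41 to 0.13 between the untreated lines and from 0.48 to 0.21 for PAE in SKOV3, and scaling by library size alone moved it to 1.16 and 1.36. With the trend removed, 37.0% of genes were called higher and 32.7% lower between the untreated lines, 28.5% and 21.7% for PAE in SKOV3, and 15.4% and 16.5% for PAE in SKOV3/DDP.

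Markers went against the ovarian label of SKOV3/DDP. Of 6 intestinal epithelial markers, 5 reached a mean of 1 CPM in both SKOV3/DDP groups and 0 did in both SKOV3 groups. Their summed level was 532 to 576 CPM in untreated SKOV3/DDP, with the transcription factor CDX2 at 163 CPM and the cadherin CDH17 at 339 CPM, and 0.254 to 0.887 CPM in untreated SKOV3, where CDX2 and CDH17 had no counts. The 6 Müllerian markers summed to 25.7 to 35.3 CPM in untreated SKOV3 and 3.81 to 6.43 CPM in untreated SKOV3/DDP. In untreated SKOV3, 4 of the 6 had no counts, and the sum came from their defining factor PAX8 (mean 29.7 CPM) and MUC16 (2.09 CPM). The means in untreated SKOV3/DDP were 4.13 CPM for PAX8 and 0.390 CPM for MUC16. SKOV3 itself thus showed little of this marker list beyond PAX8. Of 6 general epithelial markers, keratin 7 (KRT7) had the lower mean in untreated SKOV3/DDP (1.22 against 3607 CPM in untreated SKOV3), and the other 5 had higher means: EPCAM (289 against 1.26 CPM), CDH1 (442 against 7.63), KRT19 (1349 against 7.66), KRT8 (5279 against 3311) and KRT18 (4190.3 against 1498). These levels move with every difference between the lines given here, and their part in those differences was not tested. Whether SKOV3/DDP descends from SKOV3 was not tested either.

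Of the 10 genes, 9 had enough counts to be tested, and ERBB4 had 0 counts in all 12 libraries. Between the untreated lines 7 of the 9 were called, 5 higher and 2 lower in SKOV3/DDP, beside 84.7% of all genes tested (46.1% higher and 38.5% lower). For PAE in SKOV3 6 of 9 were called, 5 higher and 1 lower, beside 75.3% of all genes (42.6% higher and 32.7% lower). For PAE in SKOV3/DDP 4 of 9 were called, all lower, beside 26.4% of all genes, of which 14.7% were lower. The PAE effect differed between the lines for 6 of 9, all with the lower value in SKOV3/DDP, beside 62.9% of all genes (37.4% lower), and the PAE-treated lines differed in 7 of 9, 3 higher and 4 lower in SKOV3/DDP, beside 54.5% (27.5% higher and 27.1% lower). Most genes were called in all comparisons but that of PAE in SKOV3/DDP, so these counts by themselves say little about the 9 genes. For PAE in SKOV3/DDP the call on ERBB3 was marginal (adjusted p = 0.0495, edgeR) and was lost in 7 of 13 alternatives of the processing. That count is therefore not read as a result about the 9 genes either. Called means that edgeR's quasi-likelihood test gave a Benjamini-Hochberg adjusted p below 0.05, and the adjusted p-values below are from that test. The median log2 fold change of the 9 was 1.85 between the untreated lines (0.41 over all genes), 2.16 for PAE in SKOV3 (0.48), -0.44 for PAE in SKOV3/DDP (0.0) and 0.23 between the PAE-treated lines (0.06). With the trend removed, the middle value of the 9 between the untreated lines was that of HBEGF, 1.72 (0.13 over all genes). For PAE in SKOV3 it was that of TGFA, 0.66 (0.21), so much of the rise there went with the trend. Between the untreated lines BTC then lost its call and NRG1 was called lower, and for PAE in SKOV3 NRG1 lost its call. The comparisons share libraries (untreated SKOV3 stands in the first and second, untreated SKOV3/DDP in the first and that of PAE in SKOV3/DDP), so their values are set side by side only.

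The libraries of the groups did not overlap for 7 of the 9 genes between the untreated lines (86.5% of all genes), 7 with PAE in SKOV3 (77.4%), 3 with PAE in SKOV3/DDP (45.1%) and 7 between the PAE-treated lines (61.2%). The stricter criteria of the study's methods, an unadjusted p below 0.05 with a log2 change beyond 2 either way, kept 5 of 9 between the untreated lines (57.4% of all genes), 6 for PAE in SKOV3 (50.2%), 1 for PAE in SKOV3/DDP (7.11%), 5 for the difference of the PAE effects (45.5%) and 3 between the PAE-treated lines (24.6%).

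**Figure D1:**
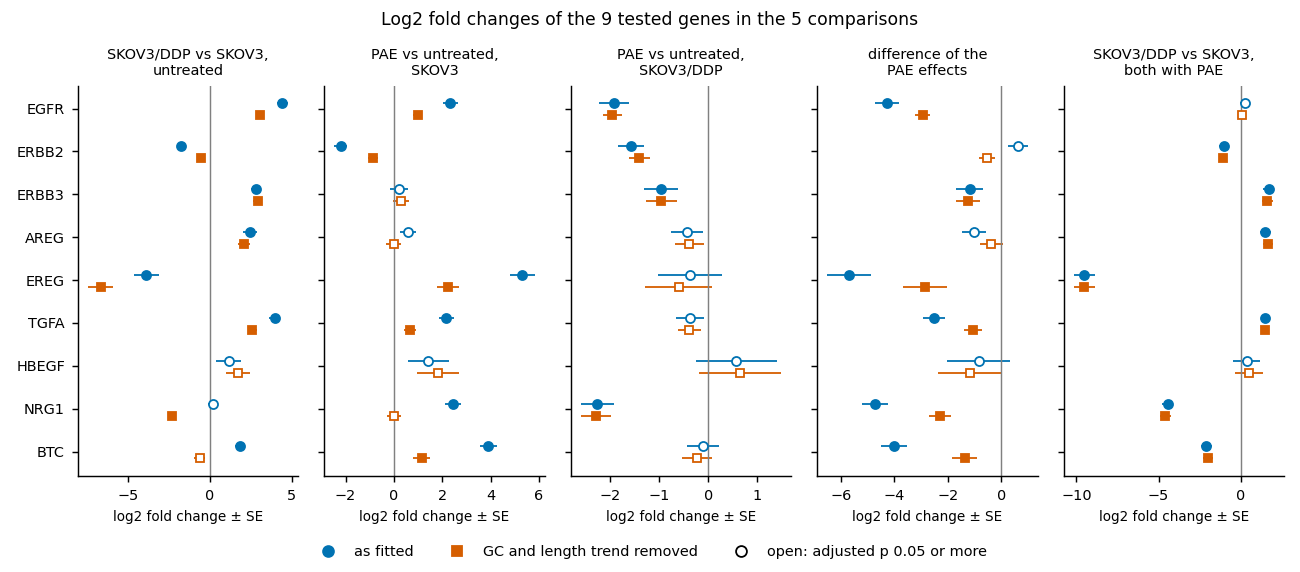
Log2 fold change with its standard error for the 9 tested genes in the 5 comparisons, as fitted by edgeR (circles) and with the GC and length trend removed (squares), open where the adjusted p was 0.05 or more. As fitted, EGFR lies at 4.43 between the untreated lines and at -1.93 for PAE in SKOV3/DDP, and ERBB2 lies below 0 in both of these and for PAE in SKOV3.

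The tables place the genes on GRCh38. EGFR is at chr7:55019017-55211628, ERBB2 at chr17:39688094-39728660, ERBB3 at chr12:56080108-56103505, ERBB4 at chr2:211375717-212538802, TGFA at chr2:70447284-70553826 and HBEGF at chr5:140332843-140346603. EREG (chr4:74365145-74388749), AREG (chr4:74445136-74455005) and BTC (chr4:74744759-74794718) form a cluster with the epigen gene EPGN (chr4:74307585-74316789), with gaps of 48.4 kb, 56.4 kb and 289.8 kb in the order EPGN, EREG, AREG, BTC and no other protein-coding gene of the tables between them. MIEN1 overlaps the end of ERBB2 and reached a mean of 59.8 CPM, and whether counting used strand is not given in the sources used here. Genes overlapping the other members had means of at most 0.365 CPM.

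Promoters of 8 of the 10 genes were found in the RefSeq table for GRCh38.p14. The 250 bases before the start are shown for AREG and EREG, neighbours whose levels went apart, and for EGFR (its first start) and ERBB2, the receptors that exchanged rank. Capitals mark matches, on either strand, to a TATA box (TATAAA), a GC box (GGGCGG), a cyclic AMP response element (TGACGTCA) or a loose AP-1 pattern (TGANTCA). In that pattern N stands for any base. The windows are chr4:74444886-74445135 for AREG, chr4:74364895-74365144 for EREG, chr7:55018767-55019016 for EGFR and chr17:39687844-39688093 for ERBB2, all on the plus strand.
AREG: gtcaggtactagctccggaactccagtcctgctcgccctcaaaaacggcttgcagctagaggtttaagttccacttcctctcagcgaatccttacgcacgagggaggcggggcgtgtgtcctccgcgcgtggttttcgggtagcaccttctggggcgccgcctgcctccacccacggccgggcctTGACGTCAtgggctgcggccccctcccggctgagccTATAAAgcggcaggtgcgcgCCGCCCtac
EREG: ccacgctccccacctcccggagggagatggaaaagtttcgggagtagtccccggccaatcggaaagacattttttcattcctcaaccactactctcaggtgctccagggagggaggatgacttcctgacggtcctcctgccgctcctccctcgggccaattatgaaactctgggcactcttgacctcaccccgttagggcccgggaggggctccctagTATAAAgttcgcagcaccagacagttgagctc
EGFR: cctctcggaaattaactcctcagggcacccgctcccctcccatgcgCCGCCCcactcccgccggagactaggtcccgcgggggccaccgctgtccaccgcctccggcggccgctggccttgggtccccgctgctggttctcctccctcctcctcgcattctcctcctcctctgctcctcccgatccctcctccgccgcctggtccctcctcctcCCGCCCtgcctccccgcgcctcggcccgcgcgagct
ERBB2: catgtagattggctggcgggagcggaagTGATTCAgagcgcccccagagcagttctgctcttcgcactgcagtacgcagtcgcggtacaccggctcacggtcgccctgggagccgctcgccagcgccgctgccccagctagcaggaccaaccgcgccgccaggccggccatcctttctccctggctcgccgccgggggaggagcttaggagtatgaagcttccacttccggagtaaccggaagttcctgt

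AREG and EREG both hold a TATA box, 29 and 32 bases before the start, which 10.7% of 35116 promoters of this length hold. AREG alone of the 4 holds the cyclic AMP response element, 65 bases before its start, which 1.65% of all promoters hold, and EREG holds none of the other 3 motifs. EGFR holds GC boxes 204 and 36 bases before the start and AREG holds one at 9, beside 42.6% of all promoters. The table also holds a promoter of EGFR at an internal start, chr7:55109589-55109838, with AP-1 matches 232 and 136 bases and TATA boxes 146 and 36 bases before that start and no GC box. ERBB2 matches the loose AP-1 pattern 222 bases before the start, with the letters TGATTCA, beside 6.57% of all promoters that match this pattern. A match is a description of these letters and not a site shown to be bound.

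Among the receptors, without correction for the trend, ERBB2 led in untreated SKOV3 and EGFR led in the other 3 groups. ERBB2, the partner receptor without a ligand, stood at 309, 284 and 326 CPM in untreated SKOV3 and at 46.3, 86.6 and 67.3 CPM in SKOV3_PAE. It stood at 119, 74.3 and 96.2 CPM in untreated SKOV3/DDP and at 30.9, 24.3 and 41.4 CPM in SKOV3/DDP_PAE. Untreated SKOV3 lay above all 9 other libraries and SKOV3/DDP_PAE below them. ERBB2 was 3.31-fold lower in the untreated resistant line (log2 fold change -1.73 ± 0.20 (SE), adjusted p = 5.24e-05, n = 3 libraries per group, edgeR), and with the GC and length trend removed the difference was -0.53 (adjusted p = 0.0283). PAE lowered it 4.59-fold in SKOV3 (-2.20 ± 0.27, adjusted p = 2.7e-06, edgeR; -0.86, adjusted p = 0.00398, with the trend removed) and 3.00-fold in SKOV3/DDP (-1.58 ± 0.27, adjusted p = 0.000904, edgeR). The difference between these effects was 0.62 ± 0.37 and did not pass (adjusted p = 0.162, edgeR). With PAE in both lines ERBB2 was 2.07-fold lower in SKOV3/DDP (-1.05 ± 0.27, adjusted p = 0.00361, edgeR), and -1.11 with the trend removed. In such bulk RNA, fewer cells of a type and less RNA per cell cannot be told apart.

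EGFR, the receptor of most of the ligands listed here, moved against ERBB2 between the lines. It stood at 55.1, 19.9 and 33.4 CPM in untreated SKOV3 and at 187, 196 and 165 CPM in SKOV3_PAE. It reached 836, 729 and 872 CPM in untreated SKOV3/DDP and 171, 182 and 288 CPM in SKOV3/DDP_PAE. Untreated SKOV3/DDP was above and untreated SKOV3 below every other library, while the PAE-treated groups overlapped. EGFR was 21.6-fold higher in untreated SKOV3/DDP (4.43 ± 0.36, adjusted p = 7.37e-06, edgeR; 3.06, adjusted p = 6.45e-06, with the trend removed). PAE raised it 5.06-fold in SKOV3 (2.34 ± 0.32, adjusted p = 7.1e-06, edgeR; 0.99, adjusted p = 0.000823, with the trend removed) and lowered it 3.80-fold in SKOV3/DDP (-1.93 ± 0.31, adjusted p = 0.000655, edgeR). These effects differed by -4.26 ± 0.44 (adjusted p = 1.31e-06, edgeR). With PAE in both lines the difference was 0.23 ± 0.30 (adjusted p = 0.550, edgeR).

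ERBB3, a receptor with little kinase activity of its own that binds neuregulins, had 0.855 ± 0.0729 CPM per kb (SD, n = 3) in untreated SKOV3, against 3.16 ± 1.55 for EGFR and 48.0 ± 3.30 for ERBB2. On the CPM scale it stood at 4.79, 5.20 and 5.68 in untreated SKOV3. It had 4.76, 9.40 and 4.05 CPM in SKOV3_PAE, 48.7, 27.5 and 38.4 CPM in untreated SKOV3/DDP and 14.6, 15.2 and 28.8 CPM in SKOV3/DDP_PAE. Every SKOV3/DDP library, treated or not, lay above every SKOV3 library. It was 7.00-fold higher in untreated SKOV3/DDP (2.81 ± 0.27, adjusted p = 2.02e-05, edgeR; 2.92 with the trend removed) and 3.21-fold higher with PAE in both lines (1.68 ± 0.36, adjusted p = 0.00103, edgeR). For PAE in SKOV3/DDP the value was -0.97 ± 0.34 at an adjusted p of 0.0495 (edgeR), with libraries that overlap, and that call was lost without replicate 1 or 3 of SKOV3/DDP (-0.72 and -0.94) or without replicate 1 or 2 of SKOV3/DDP_PAE (-0.76 and -0.79), and with library size scaling (-0.83, adjusted p = 0.0877). With PAE in SKOV3 the value was 0.22 ± 0.36 (adjusted p = 0.600, edgeR), 0.29 with the trend removed and a call of 1.10 with library size scaling (adjusted p = 0.0132). ERBB4, another neuregulin receptor, with 0 counts, allows up to 0.0862, 0.0537, 0.0606 and 0.0501 TMM-scaled CPM in SKOV3, SKOV3_PAE, SKOV3/DDP and SKOV3/DDP_PAE, taking 3 counts over a group as the floor, which covers counting error only.

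**Figure D2:**
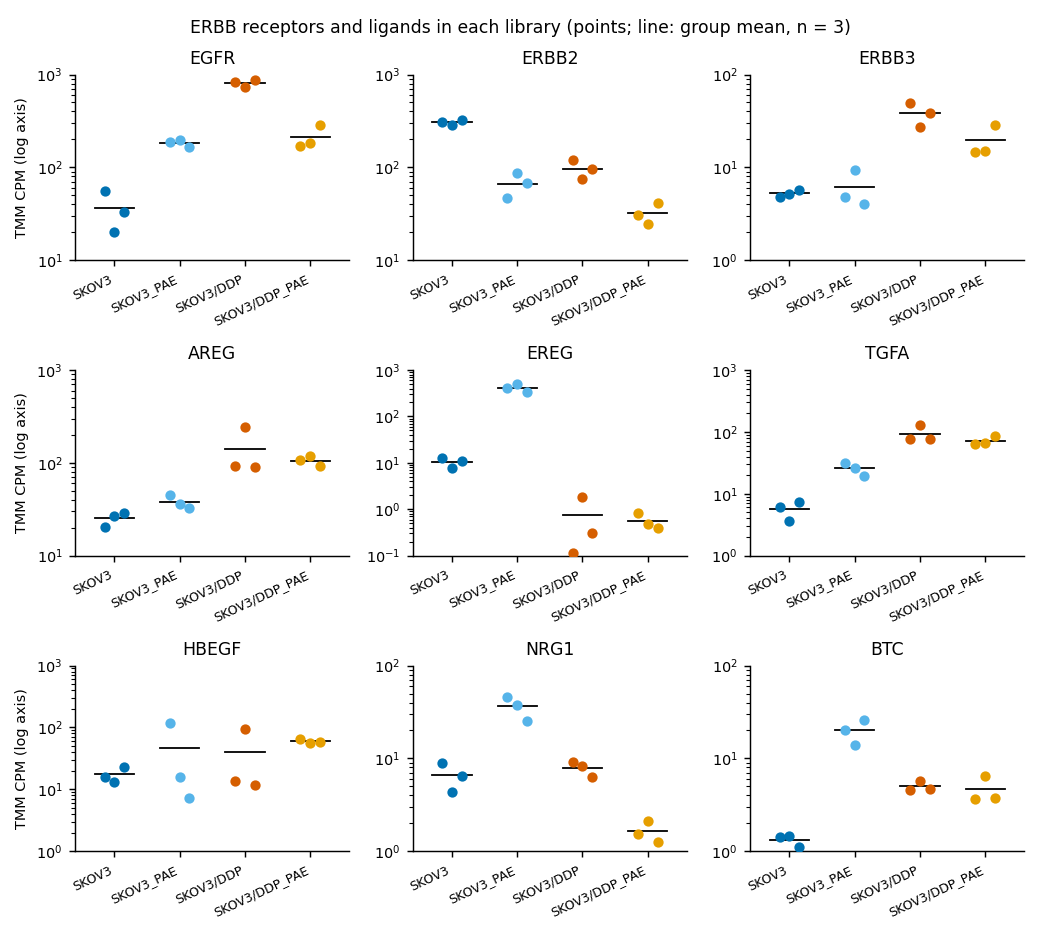
TMM-scaled CPM (log axes) of the 9 genes with counts in each of the 12 libraries (points), with group means (lines, n = 3). ERBB2 runs from 309, 284 and 326 CPM in untreated SKOV3 down to 30.9, 24.3 and 41.4 CPM in SKOV3/DDP_PAE, and EREG has its 3 highest libraries in SKOV3_PAE.

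Ratios within a library do not depend on its scaling, though they do on gene length and GC content. Per kb, ERBB2 exceeded EGFR 10.04, 25.5 and 17.5 times in the 3 untreated SKOV3 libraries. EGFR exceeded ERBB2 2.26, 1.26 and 1.37 times in SKOV3_PAE, 3.92, 5.48 and 5.07 times in untreated SKOV3/DDP and 3.09, 4.18 and 3.89 times in SKOV3/DDP_PAE. The order of these receptors was thus the same in 9 libraries and the opposite in the 3 of untreated SKOV3. These ratios, and the shares, sums and ranks below, carry no correction for the GC and length trend. With the trend removed, the log2 changes for PAE in SKOV3 were 0.99 for EGFR and -0.86 for ERBB2, against 2.34 and -2.20 as fitted. Between the untreated lines they were 3.06 and -0.53, against 4.43 and -1.73, so the 2 receptors moved apart less. Whether the order of EGFR and ERBB2 turns under that correction was not tested. The log2 ratio of EGFR to ERBB2 had means of -4.04 ± 0.68, 0.66 ± 0.45, 2.26 ± 0.25 and 1.88 ± 0.23 (SD, n = 3) in the 4 groups in that order; a two-sided exact permutation test gave 0.1 between the untreated lines, for PAE in SKOV3 and between the treated lines, which is the smallest p that 3 against 3 allows, and 0.2 for PAE in SKOV3/DDP. ERBB2 made up 89.6 to 94.5% of the summed receptor level per kb in untreated SKOV3, 29.7 to 42.1% in SKOV3_PAE, 14.6 to 18.7% in SKOV3/DDP and 17.2 to 21.8% in SKOV3/DDP_PAE. The ERBB3 share was 1.45 to 1.81%, 2.58 to 4.77%, 5.63 to 7.997% and 10.8 to 13.0%. The summed receptor level was 52.0 ± 4.28, 27.4 ± 4.20, 92.4 ± 10.9 and 26.9 ± 8.22 CPM per kb (SD, n = 3). Among 19729 protein-coding genes ranked per kb, ERBB2 stood above 89.9% in untreated SKOV3 and 65.9% in SKOV3/DDP_PAE, and EGFR above 68.1% in untreated SKOV3 and 96.5% in untreated SKOV3/DDP.

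**Figure D3:**
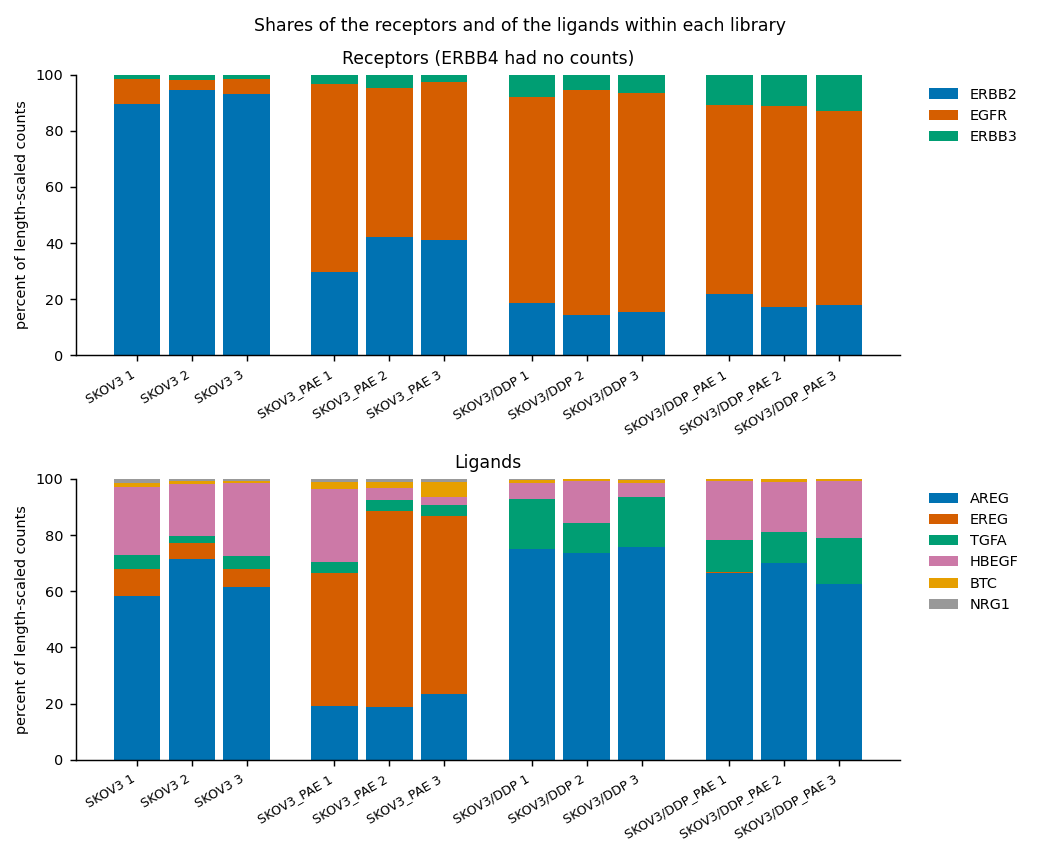
Share of each receptor in the summed receptor level and of each ligand in the summed ligand level, in percent of CPM per kb, for each of the 12 libraries (stacked bars). ERBB2 takes 89.6 to 94.5% of the receptors in untreated SKOV3, and EREG takes 47.5 to 70.1% of the ligands in SKOV3_PAE.

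Of the 10 genes beside ERBB2 on chromosome 17, 5 on each side, STARD3, TCAP, PNMT, PGAP3, MIEN1 and GRB7 were, like ERBB2, highest in untreated SKOV3. The other 4 were not: GSDMB was lowest there (1.13 CPM per kb, against 4.95, 9.53 and 7.96), IKZF3 and ZPBP2 were highest in SKOV3_PAE, and PPP1R1B in SKOV3/DDP, all 3 at means of at most 1.08 CPM per kb. STARD3, a sterol-binding protein of endosomes, stood at 67.7, 9.85, 12.5 and 15.4 CPM per kb in SKOV3, SKOV3_PAE, SKOV3/DDP and SKOV3/DDP_PAE, MIEN1 at 103, 18.2, 21.1 and 19.8, and the adaptor GRB7 at 37.1, 9.09, 9.72 and 3.66. Between the untreated lines STARD3 fell by 2.50 ± 0.18 on the log2 scale in SKOV3/DDP, PGAP3, which remodels lipid anchors, by 2.29 ± 0.21, MIEN1 by 2.35 ± 0.22 and GRB7 by 1.99 ± 0.26, each of them called. With the trend removed these differences were -0.61 (adjusted p = 0.0117, edgeR), -0.26 (0.252), -0.33 (0.140) and 0.17 (0.573), so the calls on PGAP3, MIEN1 and GRB7 were lost. PAE in SKOV3/DDP, a comparison without those libraries, lowered GRB7 by 1.41 ± 0.25 (adjusted p = 0.00128, edgeR) and PGAP3 by 0.97 ± 0.24 (0.00818), with STARD3 at 0.30 ± 0.21 (0.323) and MIEN1 at -0.093 ± 0.24 (0.827).

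Of the genes within 1000000 bases of ERBB2, 38 were tested between the untreated lines, 12 higher and 23 lower in SKOV3/DDP, with a median of -1.22 beside 0.41 over all genes, of which 46.1% were higher and 38.5% lower. With the trend removed 5 were higher and 14 lower, with a median of -0.33 beside 0.13 (37.0% and 32.7% of all genes). With PAE in SKOV3/DDP 2 of 40 were higher and 9 lower, with a median of -0.11 beside 0.0 (11.8% and 14.7% of all genes). The genes whose log2 CPM followed ERBB2 most closely over the 12 libraries, by root mean square difference of centred values among 8968 genes, were TTLL12 (0.205), ZBTB47 (0.214), LRP5 (0.218), FAH (0.271) and NR1H3 (0.286). None of these 5 lies on chromosome 17, and their GC content was 51.7% to 62.8%, against 57.5% for ERBB2.

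**Figure D4:**
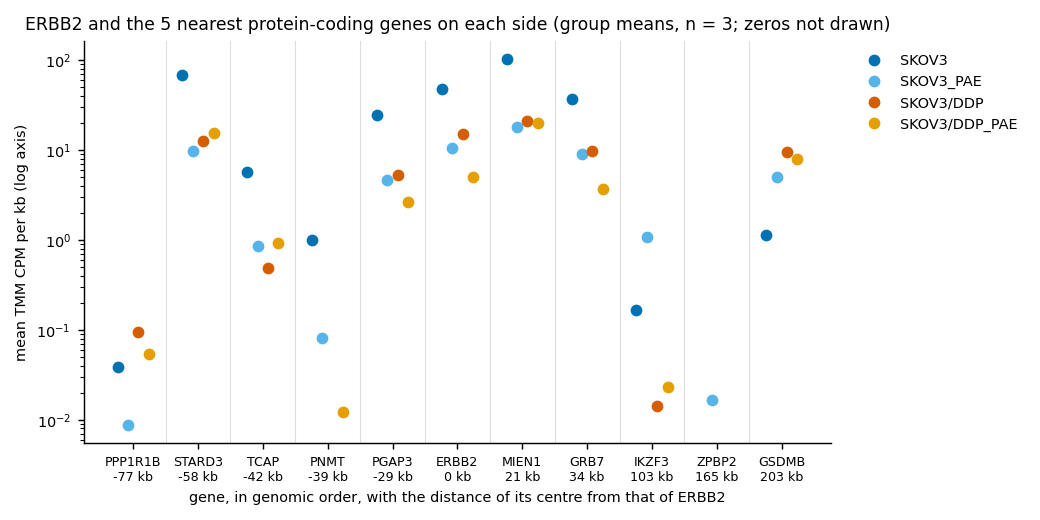
Mean CPM per kb (log axis, n = 3, means of 0 not drawn) in the 4 groups for ERBB2 and the 5 nearest protein-coding genes on each side, in genomic order. Untreated SKOV3 is the highest group for STARD3, TCAP, PNMT, PGAP3, ERBB2, MIEN1 and GRB7 and the lowest for GSDMB (1.13 CPM per kb).

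Among the 6 ligand genes, the group means of EREG spanned the widest range. Epiregulin, a ligand of EGFR and ERBB4, stood at 12.8, 7.75 and 11.2 CPM in untreated SKOV3 and at 419, 513 and 331 CPM in SKOV3_PAE. It had 0.115, 1.83 and 0.306 CPM in untreated SKOV3/DDP (2, 29 and 5 counts) and 0.834, 0.470 and 0.385 CPM in SKOV3/DDP_PAE (17, 10 and 7 counts). The SKOV3_PAE libraries lay above all others, and both SKOV3/DDP groups lay below both SKOV3 groups. PAE raised EREG 39.8-fold in SKOV3 (5.31 ± 0.52, adjusted p = 2.26e-07, edgeR), and by 2.25 on the log2 scale with the trend removed (adjusted p = 0.000928); at 36.1% its GC content is the lowest of the 10 genes. EREG was 14.7-fold lower in untreated SKOV3/DDP (-3.88 ± 0.76, adjusted p = 0.00131, edgeR; -6.67 with the trend removed; -5.64 without replicate 2 of SKOV3/DDP) and 733-fold lower with PAE in both lines (-9.52 ± 0.65, adjusted p = 1.7e-08, edgeR). In SKOV3/DDP the PAE value was -0.38 ± 0.66 (adjusted p = 0.719, edgeR), and without replicate 2 of SKOV3/DDP it was 1.41.

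AREG, the next gene of the cluster, encodes amphiregulin, a ligand of EGFR. It stood at 20.2, 26.6 and 28.7 CPM in untreated SKOV3 and 44.9, 36.4 and 32.7 CPM in SKOV3_PAE. It stood at 91.6, 245 and 91.0 CPM in untreated SKOV3/DDP and 106, 118 and 92.4 CPM in SKOV3/DDP_PAE. Every SKOV3/DDP library lay above every SKOV3 library. AREG was 5.43-fold higher in untreated SKOV3/DDP (2.44 ± 0.41, adjusted p = 0.000563, edgeR; 2.10, adjusted p = 0.00123, with the trend removed; 1.81 without replicate 2 of SKOV3/DDP) and 2.78-fold higher with PAE in both lines (1.47 ± 0.33, adjusted p = 0.00159, edgeR). PAE gave 0.59 ± 0.33 in SKOV3 (adjusted p = 0.115, edgeR), which was -0.0095 with the trend removed and a call of 1.47 with library size scaling (adjusted p = 0.000452), and -0.44 ± 0.32 in SKOV3/DDP (adjusted p = 0.348, edgeR). The neighbours thus lay in opposite order: per kb AREG exceeded EREG 5.92, 12.8 and 9.60 times in untreated SKOV3, and EREG exceeded AREG 2.50, 3.76 and 2.70 times in SKOV3_PAE. These ratios carry no correction for the GC and length trend. The log2 ratio of EREG to AREG averaged -3.17 in untreated SKOV3. With the trend removed PAE in SKOV3 gave 2.25 for EREG, against 5.31 as fitted, and -0.0095 for AREG. Whether the order turns under that correction was not tested. AREG made up 73.5 to 75.7% of the summed ligand level in untreated SKOV3/DDP, and EREG 0.0253 to 0.147%.

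BTC, at the far end of the cluster, encodes betacellulin, a ligand of EGFR and ERBB4. It was low in untreated SKOV3, at 1.42, 1.45 and 1.10 CPM, and stood at 20.3, 13.9 and 26.0 CPM in SKOV3_PAE. The SKOV3/DDP libraries had 4.56, 5.74 and 4.71 CPM untreated and 3.63, 6.53 and 3.74 CPM with PAE. SKOV3_PAE lay above all other libraries. PAE raised it 15.1-fold in SKOV3 (3.92 ± 0.37, adjusted p = 1.55e-07, edgeR; 1.15, adjusted p = 0.0123, with the trend removed). BTC was 3.61-fold higher in untreated SKOV3/DDP (1.85 ± 0.32, adjusted p = 0.000629, edgeR), a call that ended at -0.61 (adjusted p = 0.138) with the trend removed. With PAE in both lines it was 4.32-fold lower in SKOV3/DDP (-2.11 ± 0.33, adjusted p = 6.69e-05, edgeR), and -2.01 with the trend removed.

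TGFA, which encodes transforming growth factor alpha, a ligand of EGFR, was higher in SKOV3/DDP. It stood at 6.21, 3.58 and 7.37 CPM in untreated SKOV3 and 31.7, 26.0 and 19.3 CPM in SKOV3_PAE. It reached 75.6, 128 and 75.5 CPM in untreated SKOV3/DDP and 64.7, 65.0 and 85.9 CPM in SKOV3/DDP_PAE. The SKOV3, SKOV3_PAE and SKOV3/DDP libraries did not overlap, and the last overlapped with SKOV3/DDP_PAE. TGFA was 15.6-fold higher in untreated SKOV3/DDP (3.96 ± 0.35, adjusted p = 1.18e-05, edgeR; 2.60 with the trend removed) and rose 4.47-fold with PAE in SKOV3 (2.16 ± 0.31, adjusted p = 1.24e-05, edgeR; 0.66, adjusted p = 0.0429, with the trend removed). In SKOV3/DDP PAE gave -0.37 ± 0.28 (adjusted p = 0.361, edgeR). With PAE in both lines TGFA was 2.81-fold higher in SKOV3/DDP (1.49 ± 0.29, adjusted p = 0.000533, edgeR), and 1.46 with the trend removed.

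NRG1, on chromosome 8, encodes neuregulin 1, a ligand of ERBB3 and ERBB4. It stood at 8.87, 4.35 and 6.53 CPM in untreated SKOV3 and 45.6, 38.0 and 25.3 CPM in SKOV3_PAE. It stood at 9.17, 8.21 and 6.37 CPM in untreated SKOV3/DDP and 1.52, 2.11 and 1.27 CPM in SKOV3/DDP_PAE. SKOV3_PAE was the highest group and SKOV3/DDP_PAE the lowest, without overlap with the untreated groups, which overlapped with each other. PAE lowered NRG1 4.81-fold in SKOV3/DDP (-2.27 ± 0.34, adjusted p = 0.000418, edgeR). In SKOV3 PAE raised it 5.51-fold (2.46 ± 0.33, adjusted p = 5.57e-06, edgeR), and with the trend removed nothing of this was left (0.0033, adjusted p = 1.00). Between the untreated lines the difference was 0.21 ± 0.32 (adjusted p = 0.552, edgeR), and calls of opposite sign came with the trend removed (-2.30, adjusted p = 7.97e-05) and with library size scaling (0.95, adjusted p = 0.0246), so the data give no stable direction here. NRG1 was 22.04-fold lower in SKOV3/DDP with PAE in both lines (-4.46 ± 0.36, adjusted p = 9.83e-08, edgeR).

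HBEGF, which encodes heparin-binding EGF-like growth factor, was called in 0 of the 5 comparisons as fitted, and with library size scaling it was called between the untreated lines (1.81, adjusted p = 0.0384, edgeR) and for PAE in SKOV3 (2.28, adjusted p = 0.0199). It stood at 16.1, 13.0 and 23.1 CPM in untreated SKOV3 and 117, 16.05 and 7.26 CPM in SKOV3_PAE. It stood at 13.5, 95.3 and 11.8 CPM in untreated SKOV3/DDP and 64.7, 57.1 and 57.7 CPM in SKOV3/DDP_PAE. Replicate 1 of SKOV3_PAE and replicate 2 of SKOV3/DDP lay far above their groups. The value for PAE in SKOV3 was 1.42 ± 0.85 (adjusted p = 0.140, edgeR) and -0.57 without replicate 1 of SKOV3_PAE; with the trend removed it was 1.83 (adjusted p = 0.0965). Between the untreated lines it was 1.15 ± 0.75 (adjusted p = 0.183, edgeR) and -0.50 without replicate 2 of SKOV3/DDP, and 1.72 with the trend removed (adjusted p = 0.0652). That replicate 2 was also the highest of its group in AREG, TGFA and EREG and in the immediate early genes FOS (345, 1031 and 277 CPM) and EGR1 (192, 735 and 116 CPM). The summed level of the 6 ligands was 32.0 ± 5.09, 154 ± 39.2, 156 ± 99.6 and 129 ± 8.19 CPM per kb (SD, n = 3) in the 4 groups.

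**Figure D5:**
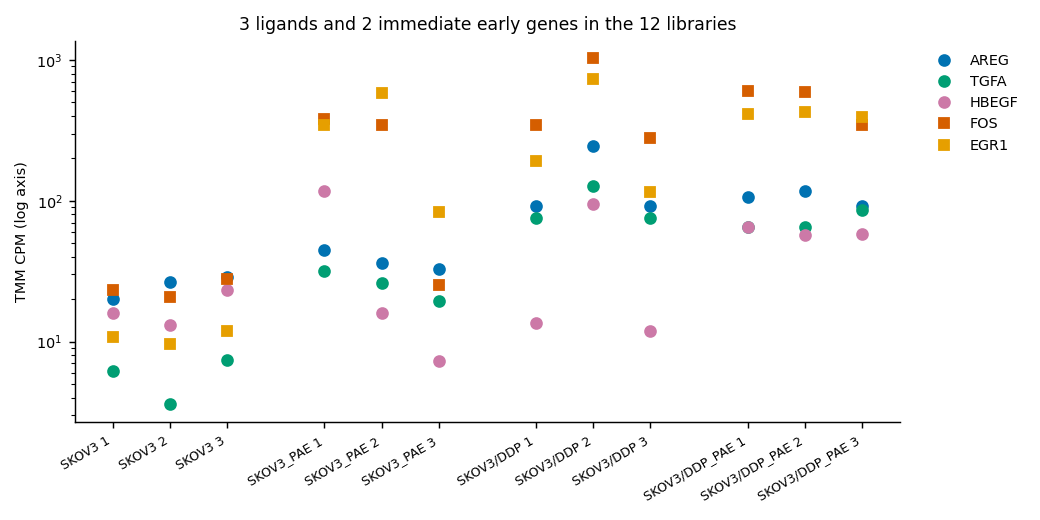
TMM-scaled CPM (log axis) of 3 ligand genes (circles) and 2 immediate early genes (squares) in each of the 12 libraries. Replicate 2 of SKOV3/DDP is the highest of its group in AREG (245 CPM, against 91.6 and 91.0) and FOS (1031 CPM, against 345 and 277).

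Of 5 further ligand genes, EGF and EPGN went apart between the lines. EGF, the founding ligand of EGFR, had 0 counts in untreated SKOV3 and 28.1, 32.7 and 23.2 CPM in untreated SKOV3/DDP, at least 325-fold higher against a floor of 3 counts over the group. PAE lowered it in SKOV3/DDP to 11.1, 10.4 and 14.7 CPM (-1.22 ± 0.28, adjusted p = 0.00738, edgeR). EPGN, at the other end of the cluster, had 0.355, 0.511 and 1.27 CPM in untreated SKOV3 and 12.7, 12.9 and 10.5 CPM in SKOV3_PAE (4.06 ± 0.53, adjusted p = 4.22e-06, edgeR; 1.35, adjusted p = 0.0419, with the trend removed). In SKOV3/DDP it had 0 to 0.126 CPM. NRG2, a neuregulin, had 16.4, 20.0 and 16.5 CPM in untreated SKOV3 and 4.56, 1.45 and 2.57 CPM in untreated SKOV3/DDP (-2.68 ± 0.40, adjusted p = 0.000268, edgeR; -1.24, adjusted p = 0.0187, with the trend removed). PAE lowered it in SKOV3 (-2.38 ± 0.40, adjusted p = 5.64e-05, edgeR), a call that ended at -0.63 (adjusted p = 0.159) with the trend removed, and the PAE-treated libraries of both lines lay between 0.825 and 4.57 CPM. NRG3 had 0 counts throughout. NRG4 was not called as fitted, and with the trend removed it was for PAE in SKOV3 (-2.15, adjusted p = 0.0436, edgeR, against 1.35 ± 0.77 as fitted) and for the difference of the PAE effects (3.27, adjusted p = 0.0374).

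The genes around the receptors were taken as 4 lists. Of 19 ERK-responsive genes and feedback regulators, 12 of the 18 tested were higher and 3 lower in untreated SKOV3/DDP (median 2.16, beside 0.41 over all genes, of which 46.1% were higher and 38.5% lower), and 13 and 1 with the trend removed (37.0% and 32.7% of all genes). DUSP6, a phosphatase of ERK, had 8.60, 7.33 and 10.1 CPM in untreated SKOV3 and 603, 688 and 646 CPM in untreated SKOV3/DDP (6.16 ± 0.20, adjusted p = 6.75e-07, edgeR; 5.16 with the trend removed). For PAE in SKOV3/DDP 7 of 19 fell and 0 rose (median -0.43, beside 0.0 over all genes, of which 14.7% fell and 11.8% rose). Cyclin D1 (CCND1) went from 1501, 826 and 1428 CPM to 242, 221 and 219 CPM (-2.46 ± 0.26, adjusted p = 5.7e-05, edgeR). The phosphatase gene DUSP4 (-1.83 ± 0.23), PHLDA1 (-1.63 ± 0.24) and the RAS pathway inhibitor SPRY4 (-1.51 ± 0.36) fell too (adjusted p = 0.000145, 0.000379 and 0.00747, edgeR). In SKOV3, PAE left 9 of the list higher and 3 lower (median 0.69, beside 0.48; 42.6% and 32.7% of all genes). With the trend removed the counts were 8 and 3 (median 0.13, beside 0.21; 28.5% and 21.7% of all genes).

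Of 11 receptor-level inhibitors, 8 were higher and 2 lower in untreated SKOV3/DDP (median 1.55, beside 0.41; 46.1% and 38.5% of all genes), and 3 and 3 with the trend removed (median -0.15, beside 0.13; 37.0% and 32.7%). The counts with PAE in SKOV3 were 8 and 1 (42.6% and 32.7% of all genes), and 2 and 2 with the trend removed (28.5% and 21.7%). ERRFI1, which binds and blocks ERBB kinases, had 53.5, 29.7 and 45.9 CPM in untreated SKOV3 and 320.1, 754 and 412 CPM in untreated SKOV3/DDP (3.47 ± 0.37, adjusted p = 3.47e-05, edgeR; 1.27, adjusted p = 0.00453, with the trend removed). In SKOV3/DDP 1 of 11 was higher with PAE, SOCS4 (0.91 ± 0.25), and 0 were lower (11.8% and 14.7% of all genes).

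Of 8 sheddases and their partners, 3 were higher and 3 lower in untreated SKOV3/DDP (46.1% and 38.5% of all genes), and 2 and 2 with the trend removed (37.0% and 32.7%). With PAE in SKOV3/DDP 0 were higher and 1 lower (11.8% and 14.7% of all genes). ADAM17, which frees amphiregulin and other EGFR ligands, had 8.34, 1.28 and 4.32 CPM in untreated SKOV3 and 34.3, 69.9 and 35.3 CPM in untreated SKOV3/DDP (3.27 ± 0.60, adjusted p = 0.00087, edgeR), a call that ended at 0.47 (adjusted p = 0.386) with the trend removed. Of 30 adaptors and signal carriers, 14 were higher and 14 lower in untreated SKOV3/DDP (median -0.37, beside 0.41; 46.1% and 38.5% of all genes), and 10 and 11 with the trend removed (37.0% and 32.7%). With PAE in SKOV3/DDP 1 was higher and 4 lower (median 0.065, beside 0.0; 11.8% and 14.7% of all genes), and 6 and 5 with the trend removed (15.4% and 16.5%). STAT5A, a transcription factor that ERBB4 and cytokine receptors activate, had means of 58.1 CPM in untreated SKOV3 and 0.0961 CPM in untreated SKOV3/DDP (-9.11 ± 0.64, adjusted p = 3.69e-06, edgeR; -7.66 with the trend removed). Between the PAE-treated lines 10 ERK-responsive genes were higher and 2 lower in SKOV3/DDP (median 1.01, beside 0.06; 27.5% and 27.1% of all genes), with DUSP6 at 3.76 ± 0.36 (adjusted p = 5.88e-07, edgeR).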

How the data were processed

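Poly-A RNA of 12 libraries was sequenced. The authors deposited raw read counts per gene, 1 table per library; the submitters' processing notes name HISAT2 2.0.5, StringTie 1.3.3b, DESeq2 and edgeR, and the counting program, its strand setting and the annotation release are not given in the sources used here. Rows that name no gene held 0.126% to 0.678% of counts per library and were left out. Genes were tested with edgeR 4.0.16 (R 4.3.3; filterByExpr, TMM, quasi-likelihood test, Benjamini-Hochberg adjustment over all genes tested, threshold 0.05): the untreated lines in a fit of their 6 libraries (15323 genes), all other comparisons in 1 fit of 12 libraries (17133 genes). Printed CPM use the 12-library scaling. Alternatives were DESeq2 1.42.0, library size scaling, no filter, the criteria of the study's methods (unadjusted p below 0.05, log2 change beyond 2 either way), a replicate block, leaving out each library, other sets of libraries, and removal of a spline trend (5 degrees of freedom) on GC content (GENCODE 29 transcripts, known for 94.0% and 91.5% of the genes tested) and deposited gene length, fitted on genes averaging 2 or more in log2 CPM. The same removal for the lists of pathway genes was chosen after seeing the data. Scripts were tested on simulated data. All 10 genes are named whatever their values. From each pathway list the genes named were among the up to 4 called per comparison with the largest change whose higher group averaged 10 CPM or more, and beside ERBB2 the 5 nearest on each side; NRG3 and NRG4 complete a list of 5. The genes and lists were chosen with earlier results of these data known. Samples with the same replicate number were not paired: the mean correlation of their deviations lay between -0.130 and 0.0722 over pairs of groups. No 2 libraries were identical.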

Additional observations from a re-analysis of the deposited data

Results flagged for a closer look

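For 6 of the 9 tested genes the effect of PAE differed between the lines by the interaction term of edgeR's quasi-likelihood fit (log2 change with PAE in SKOV3/DDP minus that in SKOV3, ± SE, Benjamini-Hochberg adjusted). EGFR gave -4.26 ± 0.44 (adjusted p = 1.31e-06) and NRG1 -4.73 ± 0.47 (adjusted p = 9.15e-07); in both genes PAE raised the level in SKOV3 and lowered it in SKOV3/DDP. EREG gave -5.69 ± 0.82 (adjusted p = 2.43e-05; -3.91 without replicate 2 of SKOV3/DDP), BTC -4.02 ± 0.48 (adjusted p = 4.49e-06) and TGFA -2.53 ± 0.42 (adjusted p = 8.32e-05), genes that PAE raised in SKOV3 and that were not called in SKOV3/DDP. ERBB3 gave -1.19 ± 0.50 (adjusted p = 0.0495), a call that DESeq2 did not make (adjusted p = 0.124) and that was lost on leaving out any single one of 8 of the 12 libraries. With the GC and length trend removed, the values were -2.95 for EGFR, -2.30 for NRG1, -2.85 for EREG, -1.38 for BTC, -1.06 for TGFA and -1.24 for ERBB3, and all 6 passed. The NRG1 rise in SKOV3 was then 0.0033. All 6 rest on the untreated SKOV3 libraries.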

How the results depend on the processing

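The counts of ERBB genes called stayed within 1.5 times the main count in 68 of 70 alternatives. Under the criteria of the methods, which also ask for a log2 change beyond 2, 1 gene in place of 4 was called for PAE in SKOV3/DDP and 3 in place of 7 between the PAE-treated lines. Directions turned with the trend removed for AREG with PAE in SKOV3 (-0.0095), BTC (-0.61) and NRG1 (-2.30) between the untreated lines and ERBB2 for the difference of the PAE effects (-0.55), with library size scaling for the last (-0.12) and for BTC with PAE in SKOV3/DDP (0.077), and with DESeq2 for ERBB3 with PAE in SKOV3 (-0.017). Of these, BTC and NRG1 between the untreated lines involve a call: BTC lost it and NRG1 gained one; library size scaling called NRG1 in the opposite direction (0.95, adjusted p = 0.0246, edgeR). That scaling also gained calls for AREG in the difference of the PAE effects (-1.69, adjusted p = 0.00275) and, as given above, for AREG and ERBB3 with PAE in SKOV3 and for HBEGF in 2 comparisons, and lost ERBB3 with PAE in SKOV3/DDP. The causes were not tested. Leaving out single libraries gave these ranges of log2 values that cross 0, from lowest to highest: HBEGF -0.50 to 1.63 between the untreated lines, -0.57 to 1.94 for PAE in SKOV3, -1.33 to 1.18 for the difference of the effects and -0.16 to 2.35 between the treated lines; EREG -0.86 to 1.41, AREG -0.64 to 0.21 and BTC -0.41 to 0.081 for PAE in SKOV3/DDP; ERBB3 -0.24 to 0.45 for PAE in SKOV3; NRG1 -0.024 to 0.46 between the untreated lines; and EGFR -0.048 to 0.36 between the treated lines. HBEGF was called between the treated lines without replicate 1 of SKOV3_PAE (2.35, adjusted p = 0.0169, edgeR), for PAE in SKOV3 without replicate 3 of SKOV3_PAE (1.94, adjusted p = 0.0399) and between the untreated lines without replicate 3 of SKOV3/DDP (1.63, adjusted p = 0.0421). With no filter on low counts, HBEGF (1.47, adjusted p = 3.44e-07, edgeR) and AREG (0.65, adjusted p = 0.0324) were called for PAE in SKOV3 and AREG for the difference of the effects (-1.05, adjusted p = 0.0134), the last also without replicate 1 or 3 of SKOV3/DDP (-1.23 and -1.24, adjusted p = 0.0286 and 0.0274). The unfiltered p of HBEGF does not reflect the spread of its libraries. With the filter the value was 1.42 (adjusted p = 0.140, edgeR), and -0.57 without replicate 1 of SKOV3_PAE. The libraries of the 2 groups overlap (exact permutation p = 0.9). That call is not relied on. With replicate number as a block, ERBB3 was lost for PAE in SKOV3/DDP (-1.001, adjusted p = 0.0651, edgeR) and for the difference of the effects (-1.23, adjusted p = 0.0606), leaving 3 and 5 genes called, and the block changed no other call of these genes. Over all genes, removing the trend left 7886 of 12895 calls for PAE in SKOV3 and 6546 of 10778 for the difference of the effects; the criteria of the methods gave 1218 against 4526 for PAE in SKOV3/DDP and 4220 against 9346 between the treated lines; and without replicate 1 or 3 of SKOV3/DDP there were 2815 and 2837 against 4526. Library size scaling moved the split of higher to lower calls from 7292 and 5603 to 9058 and 3834 for PAE in SKOV3, from 2014 and 2512 to 2889 and 1913 for PAE in SKOV3/DDP, and from 4374 and 6404 to 3088 and 7808 for the difference of the effects. Depth limits EREG in SKOV3/DDP, at 2 to 29 counts per library, and ERBB4, at 0.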
